A study of Mus musculus with 5 samples.

Results

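The regions described here are the wide peaks of ATRX, a chromatin remodeller, in cultured mouse neurons. A peak was taken as wide when it spanned at least 1500 bp of chromosomes 1 to 19, and wide peaks of the 4 peak lists that shared at least 1 bp were joined into 1 region. This gave 3947 wide peaks among 638743 peaks on these chromosomes, joined into 3547 regions. Of the wide peaks, 2435 came from the mCherry library of day 14 in vitro (DIV14), 98 from TBC1D3 at DIV14, 1322 from MICAL1-M1 at DIV14 and 92 from mCherry at day 7 (DIV7). All of them are counted below, with no further filter. Width itself chose the regions, and fold, p and q come from the same pileup as the width, so these values are given as descriptions and support nothing.

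The neurons were taken from C57BL6/J embryos late in gestation, kept in a neuronal medium with B27 and serum, and given lentivirus on day 5 in vitro. The control carried mCherry, a red fluorescent protein, and was collected at DIV14. Another DIV14 culture carried TBC1D3, a gene of hominoids that mice lack. The remaining DIV14 culture was given MICAL1-M1, named for MICAL1, which oxidises actin filaments. The peak names inside the list of that library begin with M2, and it is called here by its label. The last culture carried mCherry and was collected at DIV7, as young neurons. Each group is 1 library, so no value has a replicate error, no test between groups was made, and all differences below are between these libraries. Intervals are exact binomial 95% intervals and cover counting error only.

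ATRX uses ATP to move along chromatin, and together with the chaperone DAXX it places a replacement variant of histone H3 at heterochromatin, telomeres and other repeats. It is also known to bind G-rich sequence that can fold into stacked structures, the G-quadruplexes, and to be needed in the developing brain. Mouse genes of broad or housekeeping use often start in CpG islands, stretches of DNA rich in the dinucleotide CpG that are mostly free of methylation.

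Promoters under some of the most widely shared and the widest of these peaks are printed here. The sequences below are from RefSeq (GRCm38.p6). They run from 250 bases before to 50 bases after a start of the RefSeq promoter table, in the sense of the gene. For Il3ra and Frmd3 the printed stretch begins inside the annotated gene. The sequences are shown because the peaks reached over them. Of these, 5 belong to regions that were wide in 3 or 4 libraries. Those of Dusp6 and Pcdh10 belong to the widest control peak and the widest MICAL1-M1 peak. Capitals mark each CpG.
Atp2b1, chr10:98914392-98914691, plus strand: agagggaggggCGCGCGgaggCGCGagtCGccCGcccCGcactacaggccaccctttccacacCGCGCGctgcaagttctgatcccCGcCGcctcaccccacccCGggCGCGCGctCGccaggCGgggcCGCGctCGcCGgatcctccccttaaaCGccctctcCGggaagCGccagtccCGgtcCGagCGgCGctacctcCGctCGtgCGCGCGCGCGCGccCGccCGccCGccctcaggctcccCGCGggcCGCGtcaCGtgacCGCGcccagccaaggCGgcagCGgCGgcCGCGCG
Il3ra, chr14:14346245-14346544, plus strand: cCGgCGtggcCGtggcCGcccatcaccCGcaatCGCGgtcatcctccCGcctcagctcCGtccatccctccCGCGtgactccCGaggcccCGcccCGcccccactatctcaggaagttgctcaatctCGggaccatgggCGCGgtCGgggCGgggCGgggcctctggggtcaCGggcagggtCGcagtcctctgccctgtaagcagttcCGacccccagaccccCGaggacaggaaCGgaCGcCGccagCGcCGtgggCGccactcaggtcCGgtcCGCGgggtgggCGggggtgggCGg
Kctd12, chr14:102982588-102982887, minus strand: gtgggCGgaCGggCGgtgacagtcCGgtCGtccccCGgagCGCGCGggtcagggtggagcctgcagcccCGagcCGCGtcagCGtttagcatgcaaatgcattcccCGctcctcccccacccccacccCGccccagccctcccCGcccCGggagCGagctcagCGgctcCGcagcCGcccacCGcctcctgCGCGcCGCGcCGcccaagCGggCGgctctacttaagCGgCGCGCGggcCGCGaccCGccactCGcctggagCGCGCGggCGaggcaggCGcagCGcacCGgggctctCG
Frmd3, chr4:74013353-74013652, plus strand: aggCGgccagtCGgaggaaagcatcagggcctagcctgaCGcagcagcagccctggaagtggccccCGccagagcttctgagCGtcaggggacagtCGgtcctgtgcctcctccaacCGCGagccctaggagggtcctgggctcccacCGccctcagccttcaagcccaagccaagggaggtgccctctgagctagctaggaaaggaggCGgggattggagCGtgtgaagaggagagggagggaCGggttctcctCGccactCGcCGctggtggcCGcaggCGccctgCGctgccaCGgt
Adamts1, chr16:85803064-85803363, minus strand: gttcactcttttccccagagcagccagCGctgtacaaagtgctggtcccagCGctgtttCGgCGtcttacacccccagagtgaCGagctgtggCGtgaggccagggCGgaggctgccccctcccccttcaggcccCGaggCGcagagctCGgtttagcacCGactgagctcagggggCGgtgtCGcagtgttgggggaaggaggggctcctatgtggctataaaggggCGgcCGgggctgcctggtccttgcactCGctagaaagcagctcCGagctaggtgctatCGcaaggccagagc
Dusp6, chr10:99262981-99263280, plus strand: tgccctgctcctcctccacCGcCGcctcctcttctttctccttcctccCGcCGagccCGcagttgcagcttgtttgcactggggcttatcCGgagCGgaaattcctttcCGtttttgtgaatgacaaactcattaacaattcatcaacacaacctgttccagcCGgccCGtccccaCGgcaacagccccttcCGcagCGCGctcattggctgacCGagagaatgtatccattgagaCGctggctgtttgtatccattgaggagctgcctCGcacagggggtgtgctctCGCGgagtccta
Pcdh10, chr3:45378148-45378447, plus strand: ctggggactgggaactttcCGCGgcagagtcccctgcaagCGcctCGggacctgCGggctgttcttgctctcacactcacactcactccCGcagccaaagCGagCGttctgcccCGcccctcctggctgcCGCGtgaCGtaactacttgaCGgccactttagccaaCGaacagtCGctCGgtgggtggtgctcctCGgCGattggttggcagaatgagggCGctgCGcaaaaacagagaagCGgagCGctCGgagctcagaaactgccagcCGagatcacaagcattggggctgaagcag
These promoters held 54 CpG (Atp2b1), 35 (Il3ra), 45 (Kctd12), 19 (Frmd3), 18 (Adamts1), 19 (Dusp6) and 24 (Pcdh10), where the median promoter of the table held 14. Relative to base content the ratio of CpG was 0.55 for Frmd3 and 0.577 for Adamts1, under the table's median of 0.597, and above it for the other 5. The promoter of Slc35f1, also in a region wide in 3 libraries but not printed, held 14 CpG at a ratio of 0.519, and is named after its values were seen. The letters GGGCGG, the core of the Sp1 and KLF box, occurred on either strand in all of them but that of Dusp6. TATAAA occurred in that of Adamts1 and in none of the other 6.

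The libraries differed in depth, and both deeper ones held far more wide peaks than both shallower ones. The genome background, recovered from fold and p as a measure of depth, stood at 3.56 fragments for the control, 2.61 for MICAL1-M1, 1.28 at DIV7 and 1.22 with TBC1D3. Wide peaks made up 2.53% of the control's peaks (2.43 to 2.63), 0.944% of those of MICAL1-M1 (0.894 to 0.996), 0.0502% of those of TBC1D3 (0.0408 to 0.0612) and 0.0444% of those at DIV7 (0.0358 to 0.0544). Between the shallow lists the order was the reverse of that of the background, by 98 peaks to 92. The control, the deepest library, thus held the most wide peaks in the shortest list of 96230 peaks, and the longest list, that of DIV7 with 207423 peaks, held the fewest. Depth and group cannot be told apart in these counts. The same order of control before MICAL1-M1, and of both before the other libraries, held at 1000 bp, 2000 bp and 3000 bp. It also held for peaks at least 5 times as long as the shortest of their list, with a smaller gap. The shortest peak spanned 287 bp in the control, 282 bp in MICAL1-M1, 227 bp with TBC1D3 and 230 bp at DIV7. At 5 times these lengths the lists held 2795, 1679, 551 and 569 peaks. Wide peaks covered 9.17% of all peak bases in the control, 3.68% in MICAL1-M1, 0.286% with TBC1D3 and 0.222% at DIV7.

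**Figure D1:**
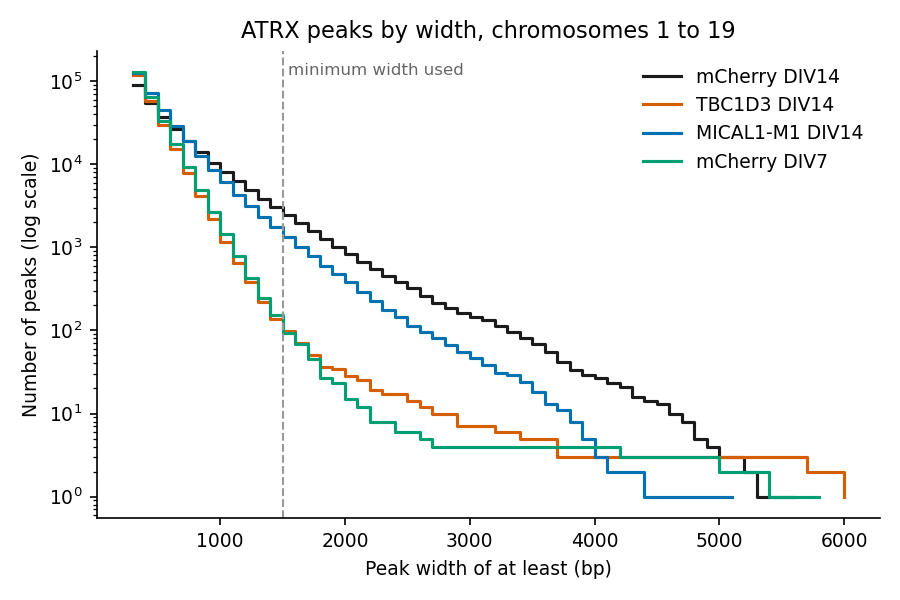
Number of peaks on chromosomes 1 to 19 (log scale) that reached at least the width on the x axis (bp, drawn up to 6000 bp), with 1 line per library; the dashed line marks the minimum of 1500 bp used here. The control and MICAL1-M1 lines stay above those of TBC1D3 and DIV7 from 1000 bp to 3000 bp, and the TBC1D3 list alone goes on past the axis, to a peak of 15953 bp.

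Most wide peaks were not much wider than the minimum. The median wide peak spanned 1816 bp in the control, 1759 bp in MICAL1-M1, 1704 bp with TBC1D3 and 1692 bp at DIV7, where all peaks of these lists had medians of 432, 404, 324 and 329 bp. At least 3000 bp was reached by 146 peaks of the control, 46 of MICAL1-M1, 7 of TBC1D3 and 4 of DIV7. The authors' fold of a peak, its ChIP pileup over the local background, had a median of 2.85 in the control's wide peaks and 2.19 in its narrower ones. It was 2.77 and 2.21 in MICAL1-M1, 3.16 and 2.26 with TBC1D3, and 2.63 and 2.19 at DIV7. The median summit of a wide peak held 14 fragments in the control, 10 in MICAL1-M1, 6.5 with TBC1D3 and 6 at DIV7, so the typical wide peak was a long stretch of modest signal in all 4 lists. Among wide peaks, a q of 0.05 or less was reached by 894 in the control (36.7%), 124 in MICAL1-M1 (9.38%), 22 with TBC1D3 (22.4%) and 22 at DIV7 (23.9%), against 3.34%, 0.355%, 0.141% and 0.175% of narrower peaks. Across the width threshold the values ran on without a step: the 241 control peaks of 1500 bp to under 1550 bp had a median fold of 2.75 and the 282 peaks of 1450 bp to under 1500 bp one of 2.85. In MICAL1-M1 these medians were 2.76 over 152 peaks and 2.49 over 183, with TBC1D3 2.70 over 17 and 2.69 over 20, and at DIV7 2.63 over 11 and 2.63 over 24.

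Wide control peaks lay at gene ends more often than narrower ones of the same library. The summit, which is 1 base whatever the width, was at most 1 kb from a protein-coding gene's end in 928 of the 2435 wide control peaks, or 38.1% (36.2 to 40.1), and in 9.16% of the narrower ones (8.97 to 9.34). With each width class taken up to but not including its upper limit, the share went up with width in the control, from 5.67% under 500 bp through 12.7% (500 to 1000 bp), 27.7% (1000 to 1500 bp), 35.9% (1500 to 2000 bp) and 41.4% (2000 to 3000 bp) to 46.6% (38.3 to 55) at 3000 bp or more. In MICAL1-M1 it was 31.5% (29.0 to 34.1) in wide and 6.22% in narrower peaks, and reached 40.3% (35.0 to 45.7) at 2000 to 3000 bp, then 26.1% (14.3 to 41.1) in the 46 peaks of 3000 bp or more. The wide peaks of the shallow lists stood lower. With TBC1D3 the share was 22.4% (14.6 to 32.0) against 4.07% in narrower peaks, and 7.14% of its 28 peaks of 2000 bp or more. At DIV7 it was 14.1% (7.74 to 23.0) against 3.76%. None of the 7 TBC1D3 peaks and none of the 4 DIV7 peaks of 3000 bp or more had its summit at a gene end, counts whose exact upper bounds are 41.0% and 60.2%.

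**Figure D2:**
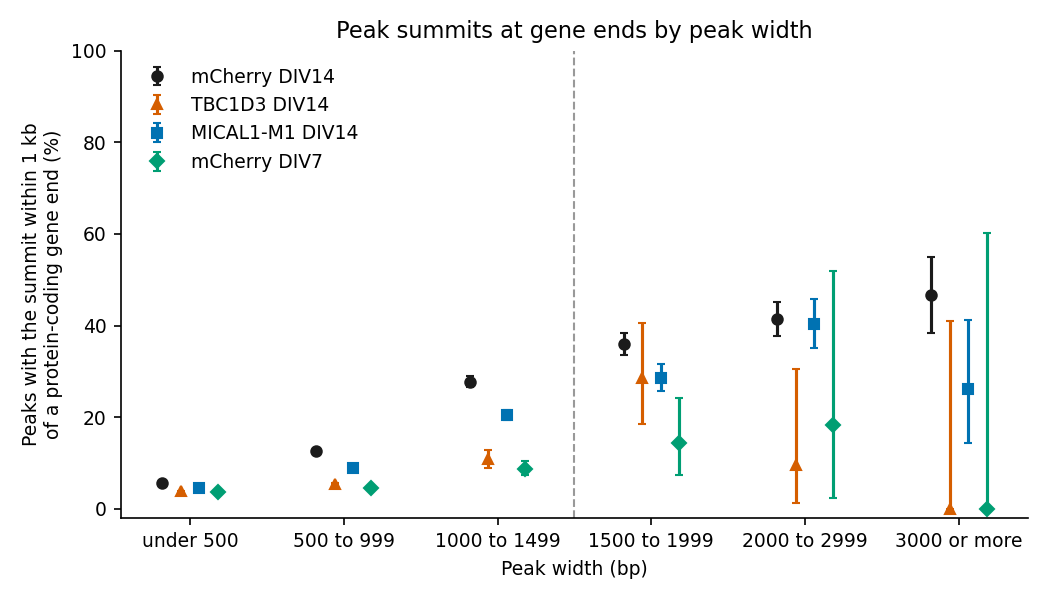
Share of peaks (%) with the summit within 1 kb of a protein-coding gene end, by peak width (bp) and library; points are shares, bars exact binomial 95% intervals, and the dashed line marks 1500 bp. The control goes from 5.67% to 46.6% across the width classes, and the TBC1D3 and DIV7 intervals are wide above 2000 bp because few peaks lie there.

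Away from gene ends, wide peaks of the control and MICAL1-M1 lay more often inside genes than outside. Those of TBC1D3 and DIV7 lay about as often outside as inside, by 40 peaks to 36 and 43 to 36. In the control 41.6% had the summit inside a gene but away from its ends and 20.3% outside genes, against 47.7% and 43.2% of narrower peaks. In MICAL1-M1 these shares were 45.5% and 23.0% of wide peaks, with TBC1D3 36.7% and 40.8%, and at DIV7 39.1% and 46.7%. Narrower peaks gave 45.1% and 48.7% in MICAL1-M1, 38.1% and 57.8% with TBC1D3, and 37.0% and 59.2% at DIV7. In every list wide peaks thus lay outside genes less often than narrower ones. Of the 1013 wide control peaks inside a gene and away from its ends, 224 (22.1%, 19.6 to 24.8) lay within 1 kb of another start in the RefSeq promoter table, against 3.94% of such narrower peaks. In MICAL1-M1 it was 106 of 601 (17.6%, 14.7 to 20.9) against 2.95%. A part of the peaks counted as intragenic therefore lay at inner starts of the same or an overlapping gene.

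Around the most upstream start of a gene the wide peaks reached farther into the gene than ahead of it. Of the control's wide peaks 808 (33.2%) covered a start of the promoter table, taking the most upstream start of each gene, and 749 covered exactly 1. In these 749 the median reach was 744 bp ahead of the start and 1186 bp into the gene. The longer side lay in the gene for 515 of them, or 68.8% (65.3 to 72.1), and for 54.4% (52.5 to 56.3) of the 2709 control peaks of 500 to 1500 bp that covered 1 start. MICAL1-M1 gave 68.2% (62.8 to 73.2) of 327 wide peaks and 57.2% (54.9 to 59.5) of narrower ones. With TBC1D3 it was 10 of 13 peaks and at DIV7 7 of 10, too few to set apart from 63.2% and 60.6% in their peaks of 500 to 1500 bp. Summits were less one-sided, with 62.6% (59.0 to 66.1) of wide and 60.9% (59.1 to 62.8) of narrower control peaks on the gene's side. Later starts of a gene were not counted, so a peak centred on one of them and covering the most upstream start reaches into the gene. The part of this in the one-sided reach was not tested. Starts of a divergent gene pair, running away from each other, were covered by 40 wide peaks of the control and 12 of MICAL1-M1.

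**Figure D3:**
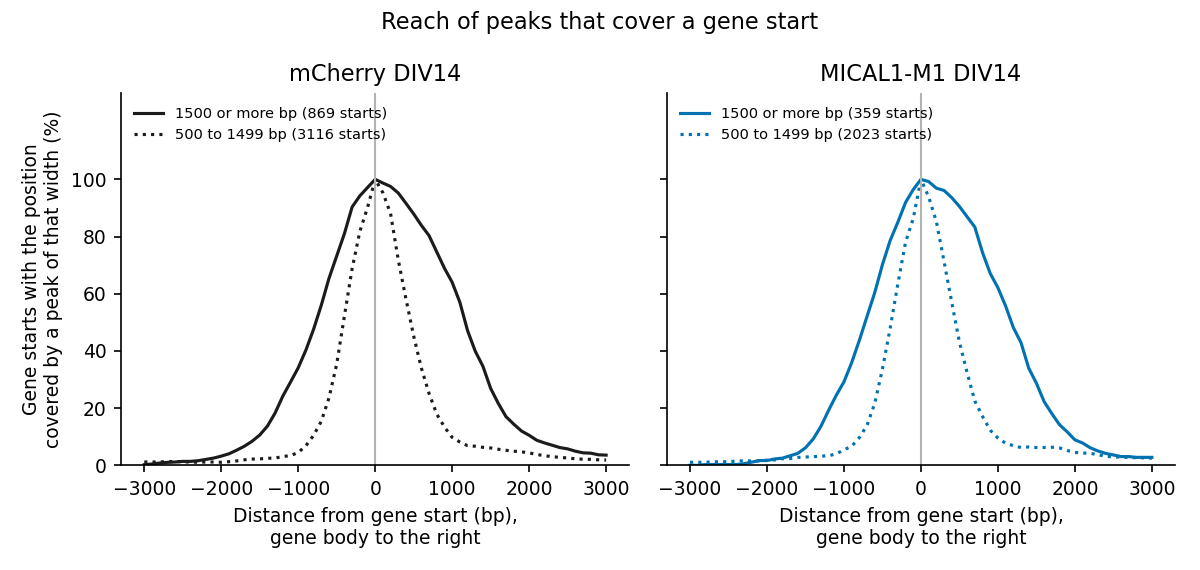
Share of gene starts (%) at which a position is covered by a peak of the given width class, by distance from the start (bp, the gene body to the right), for starts that such a peak covers; the control is on the left and MICAL1-M1 on the right. The solid lines of peaks of 1500 bp or more fall off more slowly on the gene's side, with a median reach of 1186 bp in the control against 744 bp ahead of the start. Each gene is taken at its most upstream start in the promoter table.

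Long genes and a few very short ones were found at wide peaks. Protein-coding genes with an end within 1 kb of a wide control peak had a median length of 43559 bp, against 17491 bp over all 20665 such genes of chromosomes 1 to 19. The medians were 43375 bp in MICAL1-M1, 44445 bp with TBC1D3 and 14046 bp at DIV7. A whole gene lay inside a wide control peak in 17 cases, with a median length of 1053 bp. Among these were 7 histone genes (H2ac6, H2ac20, H2ac21, H2ac22, H2aw, H3c13 and H4c1), Id1, which encodes an inhibitor of helix-loop-helix factors, and Mt2, a metallothionein. Mt2 was also the only gene wholly inside a wide MICAL1-M1 peak, and none lay inside those of TBC1D3 or DIV7.

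Promoters covered by wide peaks were richer in CpG and in G-runs than promoters at large. The promoter table matched 1007 of the 1317 genes at wide control peaks and 16457 of all 20665 genes. Over these 16457 promoters of 300 bases the median GC content was 56.7% and the median number of CpG 14, with a ratio of CpG to that set by base content of 0.597. The 869 promoters whose start lay inside a wide control peak had medians of 65.0%, 24 and 0.804. The 359 of MICAL1-M1 had 66.0%, 26 and 0.817. The 13 of TBC1D3 had 70.7%, 34 and 0.907, and the 10 of DIV7 73.7%, 36.5 and 0.907. Promoters without a control peak over the start had 53.7%, 8 and 0.396, and those under control peaks of less than 500 bp 61.0%, 21 and 0.771. CpG richness thus marked promoters under control peaks of every width class and was only a little higher under the wide ones.

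A pattern of 4 runs of at least GGG with 1 to 7 bases between them, which can fold into a G-quadruplex, was searched on both strands. It occurred in 21.6% of all promoters of the table and in 36.2% of those under wide control peaks. By width of the control peak the share was 24.8% under 500 bp, 24.4% at 500 to 1000 bp, 30.7% at 1000 to 1500 bp, 34.2% at 1500 to 2000 bp, 36.5% at 2000 to 3000 bp, and 36 of the 72 promoters at 3000 bp or more held it. MICAL1-M1 peaks gave 25.3%, 27.3%, 30.3%, 32.7%, 49.2% and 68.8%, the last over 16 promoters. The ETS letters CCGGAAG went the other way, from 23.5% of promoters under control peaks of less than 500 bp to 13.5%, 11.6% and 5.56% in the 3 wide classes, with 12.3% over all promoters. In MICAL1-M1 they went from 16.9% to 13.4%, 3.97% and 0 of 16. With TBC1D3 and at DIV7 the G-run share went from 29.4% and 26.0% under 500 bp to 45.2% of 62 and 49.3% of 67 promoters at 1000 to 1500 bp, and was 6 of 13 and 6 of 10 under wide peaks. With TBC1D3 CCGGAAG was in 9.98% under 500 bp, 9.68% at 1000 to 1500 bp and 0 of 13 under wide peaks. At DIV7 these were 9.39%, 4.48% and 0 of 10. The exact upper bounds of the counts of 0 are 24.7% with TBC1D3 and 30.8% at DIV7. GGGCGG was in 72.6% of promoters under wide control peaks and in 66.0% under those of less than 500 bp, against 47.3% of all, and it can overlap the G-run pattern. TATAAA was in 5.98% and 6.39%, against 13.5% of all. CCAAT was in 39.8% of promoters under wide control peaks, against 39.1% of all, and the full CRE box in 3.34%, against 2.40%. The CRE box was in 4.21% of promoters under control peaks of less than 500 bp, and in 0.836% under wide MICAL1-M1 peaks. These are matches of letters in a window of 300 bases, with GC content moving alongside from 61.0% to 66.2% over the control's width classes, and its part in the counts of G-runs was not tested.

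Few regions were wide in more than 1 library. A wide peak of a single library made up 3173 of the 3547 regions (89.5%), 362 were wide in 2 libraries, 10 in 3 and 2 in all 4. The control alone gave 2075, MICAL1-M1 alone 968, DIV7 alone 68 and TBC1D3 alone 62, while 331 regions were wide in the control and MICAL1-M1 and in no other. Peaks of any width were shared far more: 774 regions (21.8%) had a peak in all 4 lists, 1208 in 3, 1160 in 2 and 405 in 1. Of the 2430 regions wide in the control, 79.7% (78.0 to 81.3) held a MICAL1-M1 peak, 46.4% (44.4 to 48.4) a TBC1D3 peak and 44.9% (42.9 to 46.9) a DIV7 peak, and 14.1%, 0.7% and 0.37% held a wide one. Of the 1319 regions wide in MICAL1-M1, 80.1% (77.8 to 82.2) held a control peak, 54.4% (51.7 to 57.1) a TBC1D3 peak and 45.3% (42.6 to 48.1) a DIV7 peak, and 26.0%, 1.36% and 0.303% a wide one. Of the 97 regions wide with TBC1D3, 64.9% (54.6 to 74.4) held a MICAL1-M1 peak, 57.7% (47.3 to 67.7) a DIV7 peak and 46.4% (36.2 to 56.8) a control peak, and 18.6%, 13.4% and 17.5% a wide one. Of the 89 wide at DIV7, 57.3% (46.4 to 67.7) held a TBC1D3 peak, 48.3% (37.6 to 59.2) a MICAL1-M1 peak and 30.3% (21.0 to 41.0) a control peak, and 14.6%, 4.49% and 10.1% a wide one. With the 92 widest peaks taken from each list, 21 of 338 regions were in more than 1 list, 13 of them in TBC1D3 and DIV7 and 7 in the control and MICAL1-M1. A long region meets other peaks more easily, so the summit base alone was also looked up. The control's wide summits lay inside a MICAL1-M1 peak in 44.7% of cases, inside a TBC1D3 peak in 13.1% and inside a DIV7 peak in 12.6%, against 12.4%, 5.49% and 5.40% of narrower control summits.

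Peaks of the other libraries covered a part of the wide control peaks that they met. MICAL1-M1 peaks covered a median of 43.8% of a wide control peak that they met, TBC1D3 peaks 20.5% and DIV7 peaks 19.5%. At least 2 separate MICAL1-M1 peaks lay in 633 wide control peaks (26.0%), with up to 5 at Itm2c, at least 2 TBC1D3 peaks in 214 (8.79%) and at least 2 DIV7 peaks in 213 (8.75%). In the 343 regions wide in both the control and MICAL1-M1 the summits lay a median of 452 bp apart, within 500 bp of each other in 182. The control's peak was the wider in 184 of these regions and that of MICAL1-M1 in 158.

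Both regions that were wide in all 4 libraries had folds of at least 3.32 in each. The first, at chr11:107782574-107787482, lay inside Cacng4, which encodes an auxiliary subunit of AMPA-type glutamate receptors, away from the gene's ends. Its widest peak spanned 4909 bp in the control, 3673 bp with TBC1D3, 2718 bp in MICAL1-M1 and 2632 bp at DIV7. Folds there were 5.26, 6.78, 5.30 and 4.54, with q from 5.25e-08 with TBC1D3 to 0.000381 at DIV7. The second, at chr14:14345884-14352071, covered the start of Il3ra, the receptor chain for interleukin-3, whose promoter is printed above. Here the widest peak spanned 4594 bp in the control, 3675 bp with TBC1D3, 3712 bp in MICAL1-M1 and 4995 bp at DIV7, so the youngest culture had the widest. Folds were 4.82, 6.77, 3.32 and 5.69. The Cacng4 peak had the highest fold of all wide MICAL1-M1 peaks and was among the 5 widest in the other 3 lists.

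Of the 10 regions wide in 3 libraries, the 8 of largest width are described, 7 of them wide in all DIV14 libraries. Frmd3, which encodes a FERM domain protein, had peaks of 4039 bp in the control, 1578 bp with TBC1D3, 2094 bp in MICAL1-M1 and 584 bp at DIV7, with folds of 4.15, 3.89, 3.41 and 2.19. At Atp2b1, a plasma membrane calcium pump, they spanned 1875 bp, 1610 bp, 3066 bp and 971 bp, with folds of 2.31, 3.16, 2.79 and 3.50. Adamts1, a secreted metalloprotease, had 2998 bp, 1766 bp, 1538 bp and 884 bp. Between the ends of Anp32a, a nuclear phosphoprotein gene, and Gm20346 there were 3955 bp, 2546 bp, 2837 bp and 630 bp. In all 4 of these regions the DIV7 peak was the shortest, which follows from choosing regions wide in every library but DIV7. Inside Ptprg, a receptor tyrosine phosphatase, the peaks spanned 2073 bp, 1568 bp, 2452 bp and 733 bp. Snx18, a sorting nexin, had 1563 bp, 2426 bp and 2230 bp, and 1110032F04Rik had 1960 bp, 1593 bp and 2391 bp, both without a DIV7 peak. The remaining region, over the start of Kctd12, an auxiliary subunit of GABA-B receptors, was wide in the control (2688 bp), MICAL1-M1 (2449 bp) and DIV7 (1915 bp), and spanned 1025 bp with TBC1D3. Its folds were 2.63, 3.60, 3.58 and 3.16 in that order. The widest peak had a q of at most 0.05 in the control at Frmd3, in MICAL1-M1 at Ptprg and in both at the Anp32a region, and in no library at the other 5 of these 8 regions.

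Of the 5 widest control peaks, that inside Cacng4 is described above and 3 more are given here. Dusp6, the phosphatase that switches off ERK kinases, had the widest, 5630 bp at 2.95-fold and a q of 0.047, and MICAL1-M1 had 2053 bp at 3.79-fold in the same region. Longest peaks with TBC1D3 and at DIV7 in the Dusp6 region spanned 299 bp and 782 bp. Itm2c, which encodes a membrane protein, had 5124 bp in the control and 810 bp, 622 bp and 338 bp in the others. At Mex3b, an RNA-binding protein gene, the control peak spanned 4857 bp and that of MICAL1-M1 2522 bp. These genes were picked for their control width, so shorter peaks in the other lists say nothing further.

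The 5 widest MICAL1-M1 peaks lay at 4 gene ends or pairs of ends and inside 1 gene. Pcdh10, a protocadherin, had 5160 bp at 3.42-fold, where the control had 3 peaks of up to 2256 bp at 4.82-fold. The peak between the ends of Arid2, a subunit of the PBAF remodelling complex, and Gm38469 spanned 4330 bp in MICAL1-M1 and 1889 bp in the control. Cadm1, a synaptic adhesion molecule, had 4012 bp at 4.41-fold in MICAL1-M1 and 2314 bp at 2.78-fold in the control. The region of Id2, an inhibitor of helix-loop-helix factors, held 3949 bp and 3056 bp, and Dclk1, a microtubule-associated kinase, had 3916 bp inside the gene against 1392 bp. None of these 5 regions was among the 5 widest of the control.

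The highest fold among wide control peaks lay at an immediate early gene. Egr1, an activity-induced transcription factor, had 8.61-fold enrichment over 3571 bp, with 46 fragments at the summit. In the other lists the peak over this region was 4.87-fold over 1668 bp in MICAL1-M1, 3.29-fold over 746 bp with TBC1D3 and 3.50-fold over 804 bp at DIV7. Next came an intragenic peak of Sema6a, a transmembrane semaphorin (5.82-fold, 3523 bp), and Morc2a, an ATPase that works with the HUSH silencing complex (5.70-fold, 2264 bp). They were followed by the starts of Stag1, a cohesin subunit (5.30-fold, 1660 bp), and of Tasor, a core subunit of HUSH (5.26-fold, 1874 bp), whose fold equalled that inside Cacng4. Tasor and Stag1 had narrower peaks of 4.28-fold and 4.98-fold in MICAL1-M1. Morc2a had 2.10-fold over 284 bp there. In MICAL1-M1 the highest folds after Cacng4 were those of Ubb, a polyubiquitin gene (4.98-fold, 2413 bp), Egr1, the clock gene Arntl (4.80-fold, 2215 bp) and an intragenic peak of Pex2, a peroxisome biogenesis gene (4.71-fold, 1602 bp). At Arntl the control had a wide peak as well, 4.03-fold over 2038 bp.

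A protein-coding gene had a wide peak within 1 kb of an end in 1317 of 20665 cases in the control, a background of 6.37%. The background was 2.95% in MICAL1-M1 (609 genes), 0.169% with TBC1D3 (35 genes), 0.102% at DIV7 (21 genes) and 8.36% over the merged regions (1728 genes). The gene lists below are read against these shares, with no test of a list.

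Immediate early genes, which neurons switch on within minutes of activity, were the list with the highest share in the control. Of 38 members 18 (47.4%) had a wide control peak and 6 a wide MICAL1-M1 peak, and none had one with TBC1D3 or at DIV7. With the gene end itself inside the peak the control count was 10, where it was 1031 over all 20665 protein-coding genes. The 18 control genes rested on 18 separate peaks, and included Klf4 (3616 bp, 3.98-fold), Ier2 (3329 bp, 3.45-fold), Dusp6 and Egr1. Smaller wide control peaks lay at Fos (1770 bp), Junb (1620 bp), Jun (1594 bp, 5.04-fold) and Bdnf (1722 bp, 1.87-fold), the last the gene of a neurotrophin; these 4 were picked after their values were seen. So were Nr4a1 and Arc, which belong to the same response and had control peaks of 312 bp and 515 bp, and Npas4, which had none. Of the 18 genes 17 had a MICAL1-M1 peak of any width at an end, 8 a TBC1D3 peak and 10 a DIV7 peak. Over all genes with a wide control peak those shares were 86.1%, 58.2% and 57.9%, and over all protein-coding genes 44.2%, 38.3% and 38.2%.

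Genes of neuronal adhesion (37.5%) and of the cytoskeleton (29.3%) were also well above the control's background. Of 32 adhesion genes 12 had a wide peak in the control and 10 in MICAL1-M1, or 6 and 5 with the gene end inside the peak. Over all 20665 protein-coding genes that setting gave 1031 and 428. Beside Cadm1 there were Cadm2 (3459 bp in the control, 1662 bp in MICAL1-M1), Negr1 (2762 bp and 1612 bp) and Chl1 (2672 bp and 2565 bp), all immunoglobulin-type adhesion molecules of neurons. Of 41 cytoskeleton and axon growth genes 12 had a wide control peak and 6 a wide MICAL1-M1 peak. They included Map2, a dendritic microtubule protein (1918 bp and 3398 bp), Actg1, gamma actin (3308 bp, control only), Basp1 (2871 bp) and Tuba1a, alpha tubulin (2479 bp). For Cadm2, Negr1 and Chl1 the control peak was the wider, and for Map2 and Cadm1 that of MICAL1-M1.

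In the control, synaptic genes stood less far above the background. Wide control peaks lay at 5 of 42 presynaptic release genes, 4 of 37 postsynaptic glutamate genes, 4 of 21 inhibitory synapse genes and 5 of 26 voltage-gated channel genes. Wide MICAL1-M1 peaks lay at 1 (2.38%), 4 (10.8%), 3 (14.3%) and 1 (3.85%), against that library's background of 2.95%. The presynaptic share was thus under the MICAL1-M1 background and the channel share near it. An example is Syt4, a synaptotagmin (2045 bp, 3.51-fold), in the control. Cplx2, a complexin, had 2891 bp at 3.82-fold in MICAL1-M1. Dlgap1, a postsynaptic scaffold, had 2831 bp in the control and 1950 bp in MICAL1-M1, and the GABA-A receptor gene Gabrg1 1818 bp and 2451 bp. Cacna1b, a presynaptic calcium channel, had 1804 bp at 3.94-fold in the control. No gene of these 4 lists had a wide peak with TBC1D3 or at DIV7, where 0.169% and 0.102% of all genes had one.

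Genes of RNA processing, histones and chromatin were also above the control's background, and some shared a peak. Of 105 splicing and RNA-binding genes 18 had a wide control peak, 7 a wide MICAL1-M1 peak and 1 a wide DIV7 peak. The peak at Hnrnpa2b1, a splicing regulator, was 3640 bp at 3.94-fold and is the same one as that of its divergent neighbour Cbx3, an HP1 protein. Ddx54 (2672 bp), Nova2 (2441 bp) and Ddx5 (2392 bp) followed. Of 35 chromatin genes and ATRX partners 5 had a wide control peak, among them H3f3a, which encodes the variant that ATRX and DAXX deposit (2456 bp), Asf1a (1829 bp) and Hdac2 (1668 bp). Daxx had no control peak at its ends. The 12 of 66 histone genes rested on 6 control peaks, and the 22 of 57 clustered protocadherin genes on 2, since the gamma genes end in common exons, so neither count is one of separate events. The peak at the gamma cluster's common end spanned 2244 bp at 3.73-fold, and MICAL1-M1 had 3815 bp at Pcdhgc3 and 2355 bp at Pcdhgc4.

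Housekeeping and silent families stayed near or under the control's background. Wide control peaks lay at 4 of 80 ribosomal protein genes (Rpl7, 2401 bp at 1.51-fold, was the widest), 5 of 94 oxidative phosphorylation genes, 4 of 68 translation factors, 11 of 149 ubiquitin and proteostasis genes and 20 of 360 Zfp genes. The widest Zfp peak was that of Zfp41, 3034 bp in MICAL1-M1 and 2043 bp in the control. Developmental factors had 11 of 159 in the control, with Sox11 (3556 bp), Wnt5a (2932 bp) and Sox4 (2110 bp), 6 in MICAL1-M1 and 1 with TBC1D3. Of 32 imprinted genes 1, Rasgrf1 (1746 bp), had a wide control peak. None of 1100 olfactory receptor genes did in any list.

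**Figure D4:**
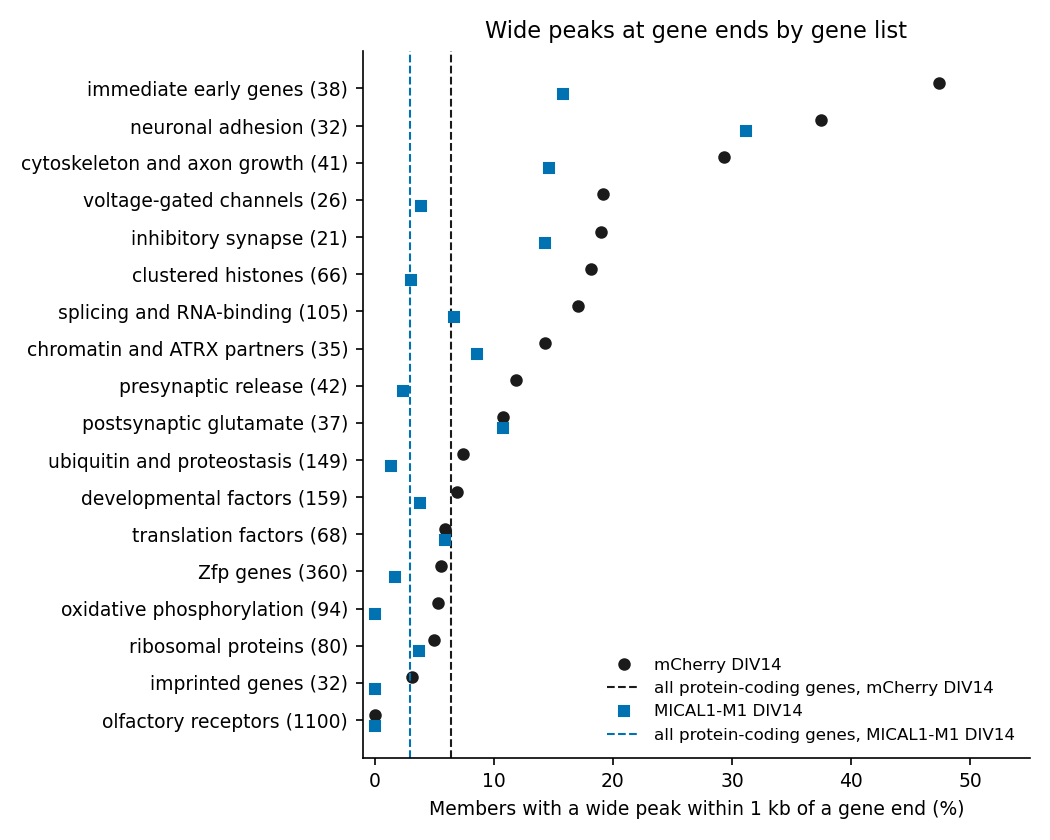
Share of the members of each gene list (%, number of members in brackets) with a wide peak within 1 kb of a gene end in the control (circles) and MICAL1-M1 (squares); dashed lines are the shares over all protein-coding genes, 6.37% and 2.95%. Clustered protocadherins, whose genes share ends, are left out. Immediate early genes lie farthest right in the control with 18 of 38 members and adhesion genes in MICAL1-M1 with 10 of 32.

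Markers of cell types gave no single picture, and an ATRX peak does not measure expression, so they are no check of the cells cultured. Wide control peaks lay at 2 of 11 neuron markers (Map2 and Nefl), 3 of 8 astrocyte markers (Slc1a3, 2473 bp, Slc1a2, 2386 bp, and Gja1, 1789 bp) and 2 of 8 markers of progenitors (Sox2 and Vim). No marker of microglia (8) or of fibroblasts and endothelium (8) had a wide peak in any list. Of 7 oligodendrocyte markers none had one in the control, and Mbp (1695 bp) and Olig1 (1509 bp) had one in MICAL1-M1. The share of other cells in the cultures, and its part in the wide peaks, was not tested.

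Wide peaks of TBC1D3 and DIV7 included a class that the deeper libraries almost lacked, at places of very high local background. The background under the peak was over 5 times the genome background of the library in 18 of 98 TBC1D3 peaks (18.4%, 11.3 to 27.5), 14 of 92 DIV7 peaks (15.2%, 8.58 to 24.2), 1 control peak and 2 MICAL1-M1 peaks. Among narrower peaks it was 0.0826%, 0.114%, 0.0235% and 0.0361%. In the first 5 Mb of a chromosome, the centromere end in the mouse assembly, lay 13 wide TBC1D3 peaks (13.3%, 7.26 to 21.6) and 13 of DIV7 (14.1%, 7.74 to 23.0). The control had 23 wide peaks there (0.945%) and MICAL1-M1 19 (1.44%), so these lists had more by count and fewer by share. Of narrower peaks 1.4% lay there with TBC1D3, 1.57% at DIV7, 0.844% in the control and 0.978% in MICAL1-M1. Without the peaks of high background the share at gene ends was 25% with TBC1D3 and 16.7% at DIV7. The part of depth, mapping and the input in these peaks was not tested.

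**Figure D5:**
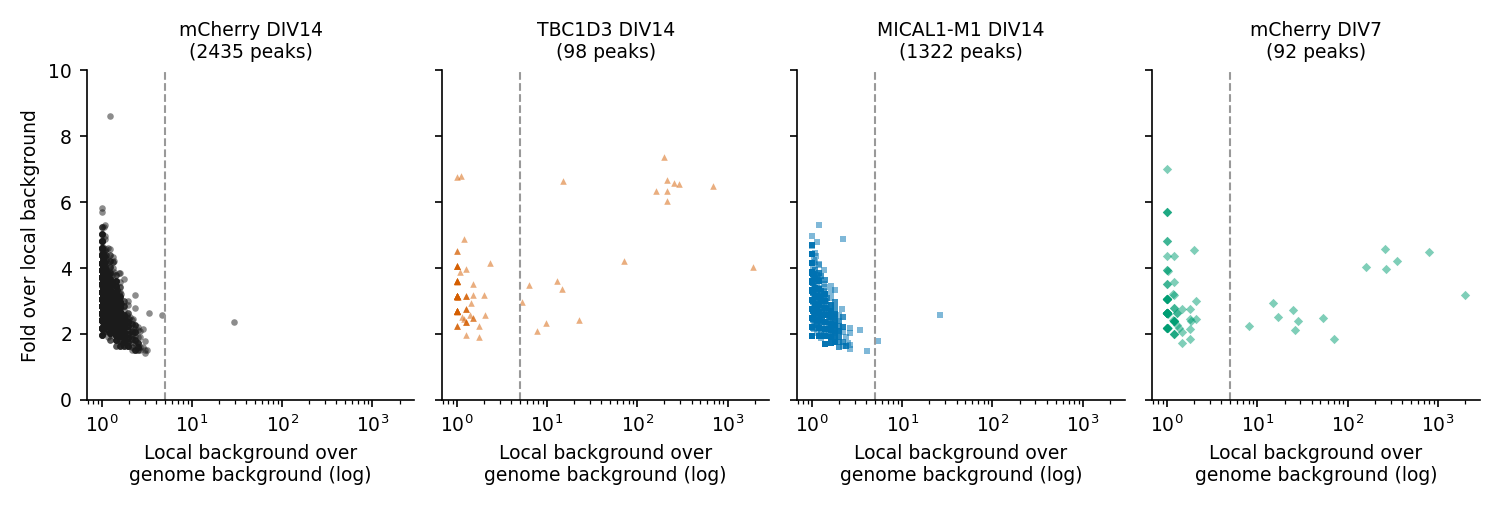
Fold over the local background (y axis) of each wide peak against its local background divided by the genome background of the library (x axis, log scale), with 1 panel per library and 1 point per peak; the dashed line marks 5 times the genome background. TBC1D3 and DIV7 have 18 and 14 points to the right of the line, the control 1 and MICAL1-M1 2.

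Such places held the greatest widths of the shallow lists. A peak of 15953 bp with TBC1D3 at chr11:3184134-3200086, inside Sfi1, a centrosome gene, was the widest of all the regions, at 3.62-fold over a background of 15.9 fragments. At DIV7 6 peaks covered 87.3% of it, the longest of 5302 bp, and neither the control nor MICAL1-M1 had a peak there. Next came chr17:39842997-39848899, over the ribosomal RNA pseudogene Rn18s-rs5 and the transcript AY036118, with 5903 bp at 6.63-fold with TBC1D3 and 5810 bp at 2.47-fold at DIV7. The control had 461 bp at 1.23-fold and MICAL1-M1 730 bp at 1.68-fold there, over backgrounds of 52.8 and 37.6 fragments that compare with 18.2 and 67.8 fragments with TBC1D3 and at DIV7. On chromosome 9 a run of wide TBC1D3 peaks lay between 3000011 and 3022646. Its peak at chr9:3017718-3019427 had the highest fold of the list, 7.36 over a background of 241 fragments, and the DIV7 peak there had 4.58 over 329. In MICAL1-M1 that peak was 1177 bp at 2.17-fold, and in the control 683 bp at 1.38-fold. The highest pileup of all wide peaks was found at chr14:19416874-19419475, 9352 fragments over a background of 2311 with TBC1D3 and 8134 over 2551 at DIV7. Of the 13 regions wide in both TBC1D3 and DIV7, 2 were wide in all libraries and 11 in these alone. Among the 11, Crlf2, a cytokine receptor chain, and the intragenic peak of Gm11639 lay at ordinary background, with folds of 4.06 and 3.18 (Crlf2) and 4.06 and 4.82 (Gm11639).

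Other wide peaks of DIV7 with high folds lay over low background. The highest fold, 7.01 over 1693 bp with 15 fragments at the summit, lay outside genes, with Fdx1 as the nearest protein-coding gene, and the longest peaks of the other lists there had folds between 2.19 and 3.26. An intragenic peak of Gnas, a G protein gene with imprinted transcripts, had 5.69-fold over 2014 bp at DIV7, and 1.83-fold over 1606 bp in the control. The peak nearest Ccng1 (5.69-fold, 1509 bp) and that at Ccdc177 (4.82-fold, 1619 bp) had no counterpart in the control or MICAL1-M1.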

How the data were processed

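Primary neurons of 4 cultures, 1 library each, were profiled by ChIP-seq with an antibody to ATRX and an enzymatic chromatin kit, with input as background per the labels; the input sample was not analysed here. The submitters' processing notes name ChIPseeker 1.26.2, MACS 1.4.2, SAMtools 1.9 and Bowtie 1.3.0. Which tool made the lists, with which settings and on which build, is not given in the sources used here. The authors deposited 1 list per sample, which holds a peak's interval, fold over the local background (a ratio), −log10 p-value, −log10 q-value, summit and a score, which the authors deposited as 10 times the −log10 p-value. The lists hold no read totals, so the pileup and local background at each summit were recovered by taking fold as (pileup + 1) over (background + 1) and p as a Poisson tail (a whole pileup gave the deposited −log10 p-value within 0.001 in 99.99% to 100% of peaks), and the lowest background stands for depth.

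The peaks were read on GRCm38: 38.1% of wide control summits were at most 1 kb from a gene end, and of points 20 kb away 3.16%, higher on 19 of 19 chromosomes. Wide peaks (1500 bp or more) were merged by 1 bp of overlap. Genes and promoters came from RefSeq GRCm38.p6, with promoter rows for 16457 of 20665 protein-coding genes, and motifs were searched on both strands. Python 3.11.15, NumPy 2.4.6, pandas 2.3.3, SciPy 1.17.1 and Matplotlib 3.10.9 were used, and the recovery and overlap steps were tested on simulated data.

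The regions and gene lists were chosen with earlier results of these data known. Named are, for each library, the 5 widest and the 5 highest folds among wide peaks, the 10 largest regions wide in 3 or 4 libraries, and up to 4 members of each gene list by width. Some of the genes this rule picks are not reported here. With 1 library per group no test was made. Alternatives changed the width minimum, q, overlap, gene window and gene set, and leaving out a replicate was not possible.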

Additional observations from a re-analysis of the deposited data

Results flagged for a closer look

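Wide peaks also lay outside chromosomes 1 to 19, where none of the comparisons above looked. The control list held 9, of which 5 were mitochondrial, 2 on X and 2 on unplaced scaffolds, and the MICAL1-M1 list also 9, with 3 mitochondrial, 2 on X and 4 on scaffolds. TBC1D3 had 28, of which 23 lay on scaffolds, 3 on X and 2 on Y, the widest of 15925 bp, with a median fold of 5.02. DIV7 had 30, with 23 on scaffolds, 3 on X and 4 on Y, and a median fold of 3.07. The lists also differed in peaks of any width on scaffolds and the mitochondrial genome. Of these, 30.4% of 23 were wide in the control and 12.3% of 57 in MICAL1-M1. With TBC1D3 it was 7.59% of 303 and at DIV7 5.6% of 411, so the order by share was the reverse of that by count. The totals of 9, 28, 9 and 30 lie above the 3 peaks that a count of 0 allows, while several of the counts by chromosome do not.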

How the results depend on the processing

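Under the alternatives for the main counts and shares, 29 values stayed within 1.5 times the count or the interval of the reported one and 62 moved beyond it. A change of direction was not scored. TBC1D3 had more wide peaks than DIV7 at the reported minimum, at 2000 bp and at 3000 bp. DIV7 had more at 1000 bp and at 5 times the shortest peak. At a minimum of 1000 bp there were 8020, 1166, 6091 and 1445 wide peaks (control, TBC1D3, MICAL1-M1 and DIV7) and 14738 regions, 12% of them wide in more than 1 library. At 2000 bp these were 829, 28, 386 and 15 peaks and 1155 regions with 8.4%, and at 3000 bp 146, 7, 46 and 4 peaks. With q of at most 0.05 the peaks numbered 894, 22, 124 and 22, and at 5 times the shortest peak TBC1D3 had 551 and DIV7 569. Taking the same number of widest peaks from every list gave 6.21% wide in more than 1. The share of wide control regions with a TBC1D3, MICAL1-M1 or DIV7 peak was 2.67%, 31.8% and 2.75% where 50% had to be covered, 42.6%, 74.2% and 40.9% where the other summit had to lie inside, and 30.1%, 75.3% and 29.0% with lists of equal size. With q of at most 0.05 in both lists it was 1.12%, 10.5% and 1.23% of 894 wide control peaks. It was 13.1%, 44.7% and 12.6% for the summit base, an alternative added after seeing the data, like that without peaks of high background. The order of the lists at gene ends held throughout except at 2000 bp or more, where the share was 42.3% in the control, 38.6% in MICAL1-M1, 7.14% with TBC1D3 and 13.3% at DIV7. For the control, MICAL1-M1 and TBC1D3 it was 30.9%, 22.9% and 11.7% at 1000 bp, 51.5%, 45.2% and 37.8% for a window of 3 kb (25% at DIV7), 26.6%, 18.9% and 10.2% for 500 bp, 47.7%, 41.5% and 36.7% for any base of the peak, and 44.9%, 37.7% and 33.7% with all annotated genes. With the gene end inside the peak, 10 immediate early genes and 6 adhesion genes had a wide control peak and 5 adhesion genes a wide MICAL1-M1 peak. Over all 20665 protein-coding genes the counts at that setting were 1031 in the control and 428 in MICAL1-M1. GGGCGG was in 72.6% (control) and 75.5% (MICAL1-M1) of promoters whose start lay inside a wide peak, against 69.7% and 70.8% of those of all genes with a wide peak at an end. The cause of these shifts was not tested beyond what each setting leaves in. No paired analysis was possible because each group is 1 library and no result comes from a test. Depth was recovered only as a background of 1.22 to 3.56 fragments, and its part in the counts of wide peaks was not tested. Repeated sequence could not be looked at without mapped reads.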

Other observations

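Clusters of tRNA genes, short genes that RNA polymerase III transcribes, lay under wide peaks of the control. A wide control peak overlapped 52 of the 391 annotated tRNA genes on these chromosomes (13.3%), on 25 separate peaks, a wide MICAL1-M1 peak 11 and a wide TBC1D3 peak 5, and none lay under one at DIV7. For comparison, wide control peaks overlapped 8.67% of protein-coding and 3.47% of lncRNA genes, which are longer. In MICAL1-M1 the tRNA share was 2.81%, on 8 peaks, under the 4.61% of protein-coding and above the 2.06% of lncRNA genes. With TBC1D3 it was 1.28%, on 2 peaks, against 0.358% and 0.0484%. At DIV7 0.315% of protein-coding genes were overlapped. Peaks of any width overlapped 37.1% of tRNA genes in the control, 26.3% in MICAL1-M1, 7.67% with TBC1D3 and 4.86% at DIV7, so the lists with the most peaks covered the fewest. In all, 30 wide regions held 60 tRNA genes, and 7 held at least 3. The region at chr11:69039443-69042319, beside Ctc1, held 4 under a control peak of 2877 bp at 4.21-fold, where MICAL1-M1 had 1395 bp at 3.05-fold and the other lists no peak. The one beside Trim27, at chr13:21167930-21170709, held 4 under a control peak of 2780 bp at 3.74-fold. Near Fcgr3 4 tRNA genes lay under wide peaks of the control (1563 bp, 2.58-fold) and of TBC1D3 (2199 bp, 2.10-fold). Near Aloxe3 and Hes7 it was MICAL1-M1 that had the wide peak (2439 bp, 3.60-fold) over 3 tRNA genes. Many tRNA genes have near-identical copies, so reads may have been placed among them, and the part of this was not tested.

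Some long genes held many wide regions along their length. Celf2, which encodes a splicing regulator, held 11 (8 with a wide control peak, 4 with a wide MICAL1-M1 peak), Tcf4, a helix-loop-helix factor, 10 (6 and 5), and Dclk1 9 (6 and 5). Dlg2, a postsynaptic scaffold, held 8, and the adhesion genes Lsamp, Ntm and Opcml 7 each. None of these 7 genes held a wide peak of TBC1D3 or DIV7, which overlapped only 0.358% and 0.315% of all protein-coding genes. Models of the protocadherin gamma cluster shared up to 9 regions over the same stretch, with 3 wide control, 3 TBC1D3, 3 MICAL1-M1 and 2 DIV7 peaks, and count as 1 place.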
